A study of Mus musculus with 2 samples.

Results

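The 6 genes described here encode proteins that set or hold the length of the muscle sarcomere. They are Ttn (titin) and Neb (nebulin), Lmod2 and Lmod3 (leiomodin 2 and 3), and Tmod1 and Tmod4 (tropomodulin 1 and 4). They were chosen by name, as 6 of the 21911 protein-coding genes of the GENCODE mouse annotation, and every peak that touched a gene or the 20 kb on either side of it was taken. This gave 110 of the 131398 peaks of replicate 1 and 116 of the 91567 peaks of replicate 2. Promoter peaks were those that overlap the 1000 bp on either side of a protein-coding start site. The rest were split into exon, intron, upstream and downstream peaks by midpoint.

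DNase-seq reads out open chromatin, because the enzyme DNase I cuts DNA where it is not packed in nucleosomes. A footprint is a short stretch inside open DNA that was cut less than its surroundings. Both samples were calf muscle, the gastrocnemius, from adult males of the hybrid strain B6CASTF1/J labelled 18 to 20 months old. They formed 1 group of 2 biological replicates, with no treatment, control or other age. The labels give the samples the same donor and different biosamples, so whether they came from 1 animal or from pooled animals is not known. The hybrid carries a CAST/EiJ copy of each autosome besides a C57BL/6J copy, and the files do not separate them. The files hold whole tissue, in which fewer cells of a type and less open chromatin per cell cannot be told apart. Read depth is not given, and signal is in the authors' unit, of which the scale is not stated.

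In the sarcomere, titin spans from the Z-disc to the M-line and acts as a spring and a ruler of the thick filament. Nebulin runs along the thin filament of actin in skeletal muscle and stabilises it. Leiomodins nucleate actin filaments and act at their pointed ends, where tropomodulins bind as caps that block further growth. Lmod3 and Tmod4 are known from skeletal muscle, whereas Lmod2 is best known from heart and Tmod1 from striated muscle and red blood cells.

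The DNA below lies in the strongest promoter peak of each gene in replicate 1 and is shown so that the footprints can be read in place. Bases come from the RefSeq FASTA of GRCm38.p6 (mm10), 5′ to 3′ on the gene's own strand, with annotated exon bases left out. Capitals mark bases inside a replicate 1 footprint.
Ttn promoter, chr2:76982548-76982680, minus strand: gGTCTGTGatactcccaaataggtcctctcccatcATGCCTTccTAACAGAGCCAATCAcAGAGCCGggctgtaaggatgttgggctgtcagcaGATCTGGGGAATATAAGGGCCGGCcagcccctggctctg
Neb inner promoter, chr2:52335181-52335380, minus strand: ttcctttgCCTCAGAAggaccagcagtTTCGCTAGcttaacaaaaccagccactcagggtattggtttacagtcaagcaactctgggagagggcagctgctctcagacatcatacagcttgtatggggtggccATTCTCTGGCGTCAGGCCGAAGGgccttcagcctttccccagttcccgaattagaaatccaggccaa
Lmod2 promoter, chr6:24597543-24597761, plus strand: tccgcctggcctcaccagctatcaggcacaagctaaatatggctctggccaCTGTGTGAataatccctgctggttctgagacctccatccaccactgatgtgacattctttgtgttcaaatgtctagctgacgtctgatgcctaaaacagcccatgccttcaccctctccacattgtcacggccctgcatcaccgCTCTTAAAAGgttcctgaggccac
Lmod3 promoter, chr6:97252760-97252980, minus strand: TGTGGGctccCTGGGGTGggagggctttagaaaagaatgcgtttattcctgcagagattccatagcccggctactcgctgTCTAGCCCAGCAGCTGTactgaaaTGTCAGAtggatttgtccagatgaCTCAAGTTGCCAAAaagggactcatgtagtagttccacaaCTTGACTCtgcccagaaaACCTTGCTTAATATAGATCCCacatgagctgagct
Tmod1 first intron, within the promoter peak, chr4:46039310-46039609, plus strand: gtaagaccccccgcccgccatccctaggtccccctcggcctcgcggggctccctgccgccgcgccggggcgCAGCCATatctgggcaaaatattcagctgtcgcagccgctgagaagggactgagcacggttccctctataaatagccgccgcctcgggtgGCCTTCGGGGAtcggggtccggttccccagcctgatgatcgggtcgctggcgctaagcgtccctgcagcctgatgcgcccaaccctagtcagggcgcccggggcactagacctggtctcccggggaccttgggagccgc
Tmod4 promoter, chr3:95124301-95124475, plus strand: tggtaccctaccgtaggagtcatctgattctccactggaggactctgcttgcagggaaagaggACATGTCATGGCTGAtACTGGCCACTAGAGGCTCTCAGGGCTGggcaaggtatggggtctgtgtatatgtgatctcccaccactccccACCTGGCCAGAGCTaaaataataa

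The printed stretch of the Ttn promoter held 5 replicate 1 footprints and 3 replicate 2 footprints over 133 bases directly before the gene start. A CCAAT match at bases 53 to 57 was overlapped by 1 footprint in each replicate. The Lmod3 stretch held 7 footprints in replicate 1 and 0 in replicate 2. A replicate 1 footprint there covered an E-box match (CAGCTG, the letters read by myogenic factors among others) at bases 91 to 96. Another overlapped part of an AP-1 match (TGANTCA) at bases 126 to 132. The Tmod1 stretch had 69.0% G and C and held a MEF2 motif match at bases 137 to 146, which overlaps the TATAAA match at bases 138 to 143. No footprint of either replicate covered that MEF2 match. Each match is a description of letters and was searched on both strands.

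All 6 genes had a promoter peak in both replicates, against 62.2% of all protein-coding genes (13621 of 21911). With the stricter of the deposited lists 5 of the 6 did, without Lmod2, and with the better 50% of peaks 5 did, without Lmod3. The 62.2% holds for the larger lists only. No share over all genes is given for these other settings, so their counts have no background here. Their strongest promoter peaks lay below the median over all promoters with a peak, which was 3.16 in replicate 1 and 3.41 in replicate 2.

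Ttn had the strongest promoter peak of the 6, at 3.03 in replicate 1 and 2.11 in replicate 2 (mean 2.57 ± 0.653 SD, n = 2). It sat at the gene start, with its midpoint 34 bp before it in replicate 1, and it ranked at percentiles 48.5 and 33.0 among promoters with a peak. A separate start inside the gene, that of the transcript Ttn-204, had a peak of 2.47 and 0.962. Of the 14 distinct start positions counted for Ttn, 10 are tagged as incomplete in the annotation, and none of those 10 had a peak.

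Neb was most open at an inner start, in both replicates. Its strongest promoter peak had 2.27 in replicate 1 and 1.90 in replicate 2 (mean 2.08 ± 0.268 SD, n = 2). It lay before the start of the transcript Neb-203, 43193 bp inside the gene record. The outermost start, that of Neb-212, had no peak in replicate 1 and a peak of 0.453 in replicate 2. That peak ranked at percentile 22.6 of the replicate 2 peaks, held 0 footprints and also lay in the overlapping gene Gm13522. Both replicates thus had the inner peak, and the difference at the outer start rested on 1 weak call.

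The leiomodins had the weakest promoter peaks of the group. Lmod2 had 1.11 in replicate 1 and 0.788 in replicate 2 (mean 0.950 ± 0.229 SD, n = 2), at percentiles 22.0 and 12.4. The strongest Lmod3 promoter peak of replicate 1 had 1.28, with 8 footprints and its midpoint 92 bp before the start, and it was not called in replicate 2. A second Lmod3 peak further upstream was called in both, with 0.761 and 0.648.

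The capping genes differed in the kind of promoter. Tmod1, which caps thin filaments at their pointed ends, had 1.40 in both replicates. Tmod4, the skeletal muscle cap, had 2.30 in replicate 1 and 1.69 in replicate 2 at its start. A further Tmod4 peak, with its midpoint 735 bp after the start and inside an exon, had 2.12 and 1.83 and was the strongest of replicate 2.

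CpG content set Tmod1 apart in value from the other 5. The CpG ratio (observed over expected from base composition) was 0.735 in the Tmod1 promoter, close to the median of 0.763 over the 13621 promoters with a peak in both replicates. It was 0.148 for Tmod4, 0.216 for Lmod3, 0.245 for Neb, 0.384 for Lmod2 and 0.400 for Ttn. These 5 lay between percentiles 2.42 and 12.9 of all such promoters, and Tmod1 at 45.2.

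Counts of all peaks differed between genes and between replicates. Ttn had 30 peaks in replicate 1 and 68 in replicate 2, the only one of the 6 with more in replicate 2. Neb had 23 and 12, Tmod1 24 and 13, Lmod2 12 and 7, Lmod3 10 and 6, and Tmod4 11 and 10. The lists as a whole went the other way from Ttn, with 131398 and 91567 peaks. Per 10 kb of locus, replicate 1 had 0.816 peaks at Neb, 0.942 at Ttn, 1.84 at Lmod3, 2.05 at Tmod1, 2.46 at Tmod4 and 2.52 at Lmod2. In replicate 2 the order was Neb at 0.426, Lmod3 and Tmod1 at 1.11, Lmod2 at 1.47, Ttn at 2.13 and Tmod4 at 2.24, so Neb was the sparsest in both and Ttn in replicate 1 came next.

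**Figure D1:**
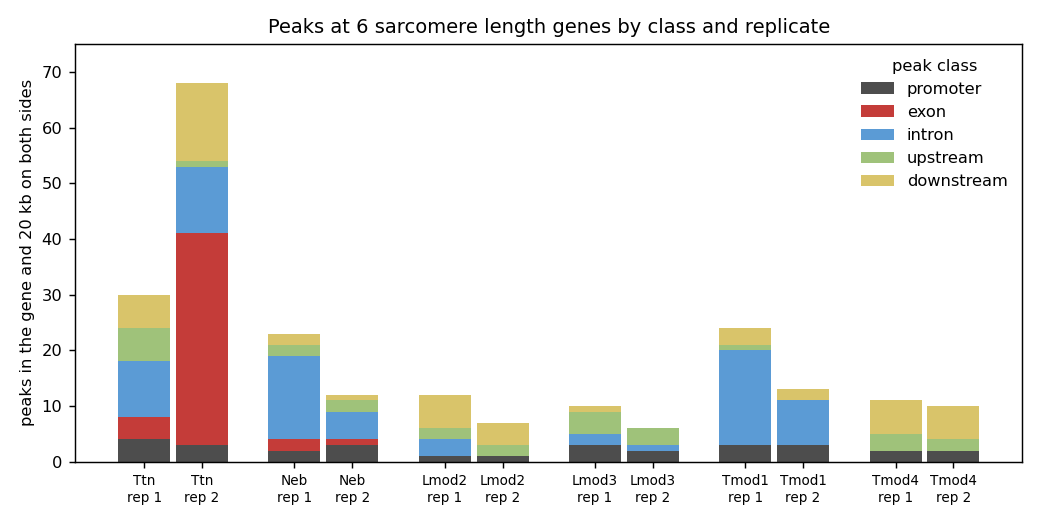
Number of peaks in each gene and its 20 kb flanks (vertical axis), stacked by class, with 1 bar per gene and replicate. Titin rises from 30 peaks in replicate 1 to 68 in replicate 2, of which 38 are exon peaks, and the other 5 genes have fewer peaks in replicate 2.

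Peaks away from the start are printed next, because the strongest open sites of several genes lay there. Ttn, Neb, Lmod3 and Tmod1 are given by the body peak, outside promoters, with the highest mean rank over both replicates. Flank peaks of Ttn ranked higher than its body peak, the highest being downstream in the body of Plekha3 (1.19 and 1.38). Lmod2 is given by its upstream peak, since its introns held no peak of both replicates, and Tmod4 by the non-exonic bases of the further peak within its promoter window. Build, strand and capitals are as above, and the exon label of the Ttn peak goes by its midpoint.
Ttn exon, chr2:76808401-76808660, minus strand: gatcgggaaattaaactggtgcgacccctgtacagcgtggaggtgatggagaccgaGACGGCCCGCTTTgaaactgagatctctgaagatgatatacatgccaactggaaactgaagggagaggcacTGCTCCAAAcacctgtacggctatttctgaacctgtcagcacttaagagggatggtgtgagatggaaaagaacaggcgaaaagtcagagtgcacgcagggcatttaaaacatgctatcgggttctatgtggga
Neb intron, chr2:52371181-52371340, minus strand: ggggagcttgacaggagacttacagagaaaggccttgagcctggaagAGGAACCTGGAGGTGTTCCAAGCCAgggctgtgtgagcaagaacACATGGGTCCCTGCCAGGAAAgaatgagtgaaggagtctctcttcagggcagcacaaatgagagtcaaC
Lmod2 upstream, chr6:24586941-24587160, plus strand: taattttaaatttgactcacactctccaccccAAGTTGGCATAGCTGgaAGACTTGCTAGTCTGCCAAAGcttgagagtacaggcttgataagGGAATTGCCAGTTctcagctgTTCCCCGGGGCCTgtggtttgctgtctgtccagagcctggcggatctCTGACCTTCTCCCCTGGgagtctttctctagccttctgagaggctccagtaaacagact
Lmod3 intron, chr6:97251081-97251260, minus strand: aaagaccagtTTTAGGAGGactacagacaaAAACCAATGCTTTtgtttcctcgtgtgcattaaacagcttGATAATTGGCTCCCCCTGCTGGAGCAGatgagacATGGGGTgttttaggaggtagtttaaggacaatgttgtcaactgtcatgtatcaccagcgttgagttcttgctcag
Tmod1 intron, chr4:46087921-46088120, plus strand: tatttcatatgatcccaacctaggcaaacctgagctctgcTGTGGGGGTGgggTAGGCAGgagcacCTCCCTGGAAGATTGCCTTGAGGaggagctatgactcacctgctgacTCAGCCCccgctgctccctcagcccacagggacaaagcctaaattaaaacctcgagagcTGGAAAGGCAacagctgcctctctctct
Tmod4 intron part of the further promoter-window peak, chr3:95125101-95125196, plus strand: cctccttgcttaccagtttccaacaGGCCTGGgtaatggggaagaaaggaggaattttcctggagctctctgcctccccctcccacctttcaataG

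Titin's strongest shared body peak had its midpoint in an exon, 174016 bp from the gene start. It reached 1.23 in replicate 1 and 1.03 in replicate 2. A neighbouring intron peak, 175046 bp from the start, had 1.28 and 0.855. Upstream, a Ttn peak 15994 bp before the gene had 1.53 and 0.950.

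Nebulin's strongest shared intron peak stood 7213 bp after the outermost start, with 1.69 in replicate 1 and 0.956 in replicate 2. This peak also lies in Gm13522, an annotated gene that overlaps Neb. Further intron peaks of Neb in both replicates stood 20143 bp (1.22 and 0.945), 46493 bp (1.39 and 0.676), 106103 bp (1.38 and 0.760) and 140293 bp (0.878 and 1.11) from the start. Only the last of these 4 was higher in replicate 2. A Neb peak 12117 bp upstream had 1.93 and 0.621.

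Some flank peaks of Lmod2 were stronger than its promoter peak, although per base its promoter window was more open than its flanks. Bases with a rate under 0.05, the authors' false discovery rate of the cut rate at a base, made up 16.6% of the promoter window in replicate 1 and 9.85% in replicate 2. Upstream they made up 3.66% and 2.78%, and downstream 7.44% and 3.05%. Upstream peaks at 10711 bp and 14111 bp before the gene had 2.01 and 1.81 in replicate 1, and 1.90 and 1.72 in replicate 2. Downstream, a peak at 14799 bp from the gene start had 2.48 and 1.51. The Lmod2 intron held 3 peaks of 0.858 to 1.10 in replicate 1, and replicate 2 had none there. In replicate 2 only 0.473% of the Lmod2 intron bases had a rate under 0.05, against 16.4% in replicate 1.

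Lmod3 had its strongest peak in the first intron, 1588 bp from the start, with 1.57 in replicate 1 and 1.01 in replicate 2. That was above any of its promoter peaks in the same replicate. The intron sequence holds 2 CCAAT matches, and footprints of both replicates overlapped 1 of them. Upstream, the Lmod3 peak at 5932 bp before the start had 0.888 and 0.889.

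Tmod1 had the most shared intron peaks of the 6 and no exon peak. Its strongest, 49086 bp from the start, had 2.76 in replicate 1 and 2.18 in replicate 2, both above its promoter. The sequence of this peak holds an E-box match, a MEF3 match (TCAGGTT, on the opposite strand) and 2 AP-1 matches, and a footprint of each replicate overlapped the second AP-1 match, that of replicate 1 in part. A second strong Tmod1 intron peak, 25536 bp from the start, had 2.44 and 1.70. In all, 8 Tmod1 intron peaks were called in both replicates.

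Tmod4 is a short gene among close neighbours, and much of the signal of its locus belongs to them. In each replicate 4 of its flank peaks lay at promoters of other genes. These were Pip5k1a (6.64 and 6.08), Vps72 (3.49 and 3.75), the shared promoter of Lysmd1 and Scnm1 (4.14 and 3.78) and Tnfaip8l2 (4.25 and 4.61). A peak where the 3′ ends of Tmod4 and Scnm1 meet had 3.05 and 2.01. By midpoint, no peak lay in the Tmod4 body outside the promoter window.

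**Figure D2:**
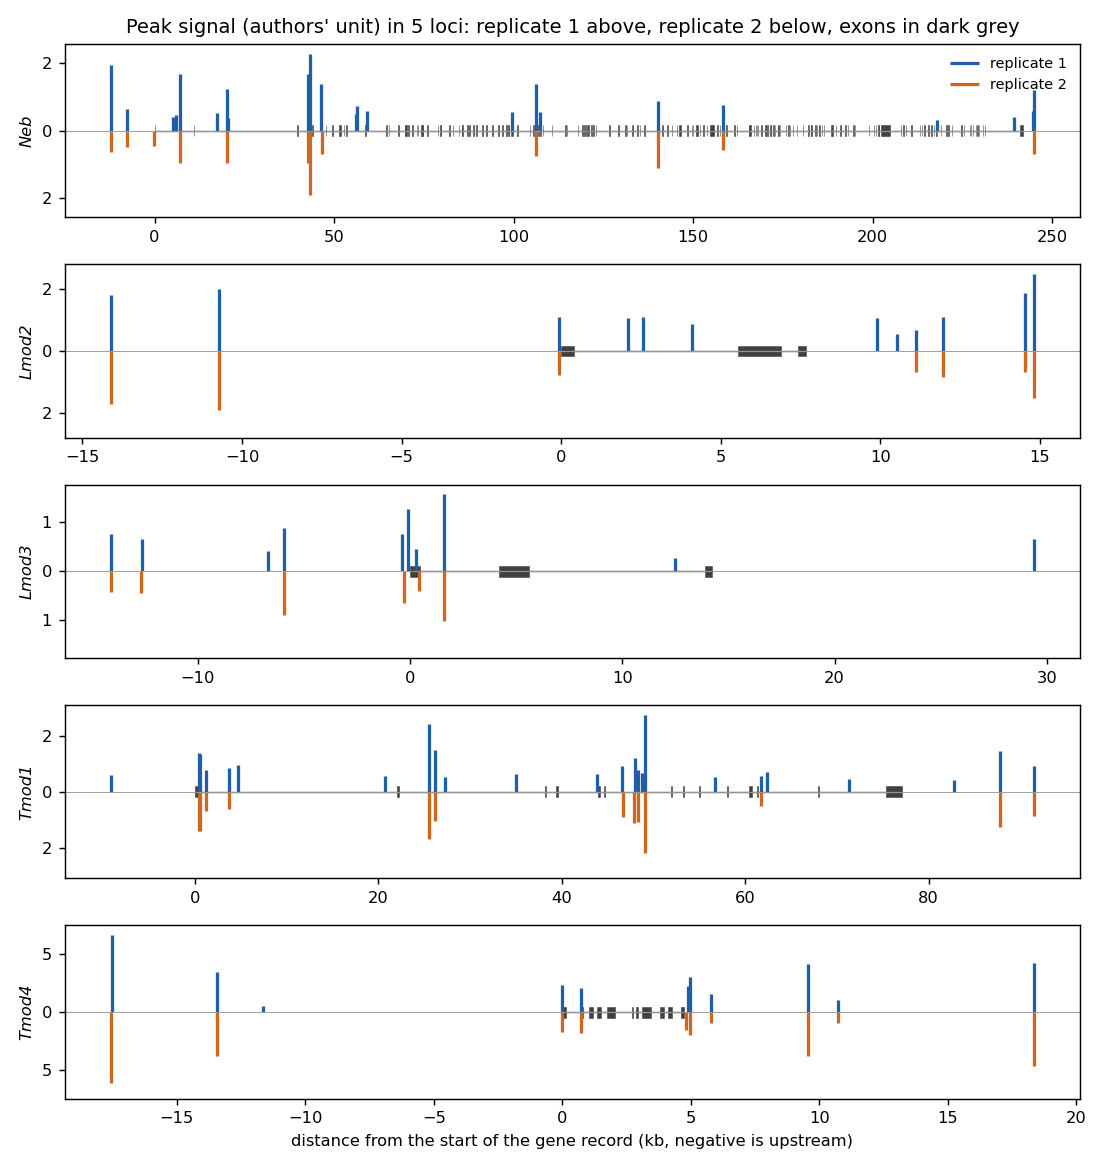
Peak signal in the authors' unit (vertical axis of each panel, replicate 1 upward and replicate 2 downward) against distance from the gene start in kb, for 5 loci with their exons in dark grey. Nebulin's highest lines stand 43193 bp inside the gene record, the highest Tmod1 line stands in an intron, and the highest Tmod4 lines stand at promoters of neighbours.

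Exon peaks were few except at titin. In replicate 1, 6 of 53 body peaks outside promoters had their midpoint in an exon (11.3%, exact 95% interval 4.27 to 23.0). In replicate 2, 39 of 65 did (60.0%, 47.1 to 72.0). That interval takes each peak as independent, but 31 of the 39 lay in 1 stretch of Ttn, described below. Without runs of peaks called in 1 replicate alone, a choice made after seeing the data, the share was 24.0% (9.36 to 45.1). Exons made up 24.5% of the body bases outside promoters. Over all protein-coding genes the exon share of body peaks was 11.4% and 13.5%, with 8.05% of bases exonic. Of the 45 exon peaks over both replicates, 42 were in Ttn and 3 in Neb.

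At Ttn, 4 of 14 body peaks of replicate 1 were in exons (28.6%, 8.39 to 58.1), and 38 of 50 of replicate 2 (76.0%, 61.8 to 86.9), where 43.4% of the bases are exonic. The replicate 2 interval again takes neighbouring peaks as independent. Neb had 2 of 17 and 1 of 6, with 10.2% of bases exonic. Tmod1 had 0 of 17 and 0 of 8, which leaves room for a share of up to 19.5% and 36.9% by the exact interval. The 2 Ttn exon peaks called in both replicates were the only shared exon peaks by midpoint in replicate 1.

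Most of the replicate 2 exon peaks of Ttn, 31 of 38, were weak and lay in 1 stretch. In the stretch chr2:76752233-76771620, which is 211 to 230 kb from the gene start, 19.4 kb long and overlaps 31 exons, replicate 2 had 38 peaks, 31 in exons and 7 in introns, and 42 footprints. All of these peaks also lie in the body of Gm13938, an annotated antisense gene. Replicate 1 had 1 peak and 2 footprints there. The stretch was bounded by runs of peaks called in replicate 2 alone, so the lack of replicate 1 peaks follows largely from that choice. Signals of these 38 replicate 2 peaks ran from 0.0839 to 0.559 with a median of 0.196, while the median of all replicate 2 peaks was 0.760. The replicate 1 peak had 0.802 and overlapped the replicate 2 peak of 0.559.

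Cut rates per base come from the same reads as the peaks that set the bounds of that stretch. The shares inside and beside it are thus description and no separate support. In that stretch of Ttn, 68.1% of bases had a rate under 0.05 in replicate 2 and 0.861% in replicate 1, while over the whole genome the shares were 1.07% and 1.54%. Within the stretch, exon bases passed more often than intron bases in replicate 2, 82.2% against 41.8%. The 10 kb on its gene-start side had 0.150% of such bases in replicate 2 and the 10 kb on the other side 4.13%. Over all Ttn exon bases outside promoters the share was 10.7% in replicate 2 and 0.862% in replicate 1, and over Ttn intron bases 2.63% and 1.91%.

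**Figure D3:**
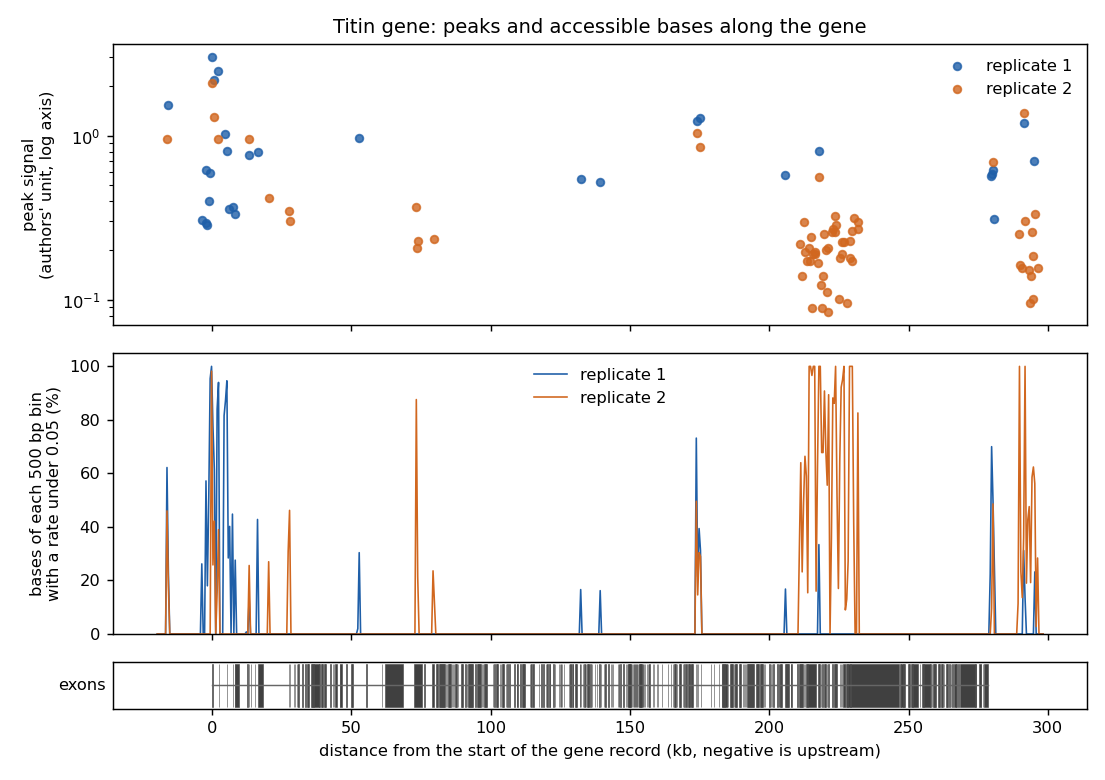
Titin by distance from the gene start in kb: peak signal in the authors' unit on a log axis (top), percent of bases in each 500 bp bin with a rate under 0.05 (middle) and exons (bottom). Replicate 2 shows a block of weak peaks between 211 and 230 kb that replicate 1 lacks, and both replicates have their strongest peaks near the gene start.

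Other runs of at least 3 peaks, less than 1 kb apart and called in 1 replicate alone, also lay in the Ttn locus. In replicate 2, 3 exon peaks of 0.207 to 0.369 lay within chr2:76908481-76909400. Another 7 and 3 replicate 2 peaks lay beyond the 3′ end of Ttn in the body of Plekha3. In replicate 1, 5 peaks of 0.335 to 1.03 lay just inside Ttn at chr2:76974101-76978000, and 5 of 0.284 to 0.619 just before the gene at chr2:76983101-76984891. The Neb, Lmod2, Lmod3, Tmod1 and Tmod4 loci held no such run in either replicate.

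The excess of Ttn peaks in replicate 2 rested on weak peaks. With only the better 50% of each list by signal, the Ttn locus had 16 peaks in replicate 1 and 8 in replicate 2, and without the runs, an alternative chosen after seeing the data, 20 and 18. The exon share of body peaks of the 6 genes then fell to 6.45% and 7.14% with the better 50%, and was 10.4% and 24.0% without the runs. The stricter list kept it, with 11 and 51 Ttn peaks and an exon share of 3.85% and 71.7%.

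More body peaks in replicate 2 than in replicate 1 were found for 8.23% of genes with at least 20 body peaks (132 of 1604). Of the 3 members with that many, Ttn had more in replicate 2 (17 and 53, promoter peaks included), and Neb (19 and 8) and Tmod1 (20 and 11) had fewer. By the share of body peaks called in replicate 2 alone, Ttn (65.7%) ranked 20 of 1604. The genes with the highest such share were Chat, Cnpy1, Plekhn1, Vps33a and Ighmbp2, from 90.5% to 100%. In the other direction Myh4, a fast myosin heavy chain gene, had 29 body peaks in replicate 1 and 0 in replicate 2, followed by Irx5, Nek6, Mylk4 and Stk3. Neb, with 40.7% in replicate 1 alone, ranked 168 in that direction.

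Shared peaks described the rest of the loci. In each replicate 58 locus peaks overlapped a peak of the other, which is 52.7% of the 110 peaks of replicate 1 and 58 of 116 in replicate 2, against 58.4% and 83.6% of all peaks. In replicate 2 all peaks of Lmod2, Lmod3, Tmod1 and Tmod4 were shared, and 11 of 12 of Neb (91.7%), but 11 of 68 of Ttn (16.2%). Without the runs the replicate 2 share over the 6 loci was 87.9%.

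Shared peaks of the 6 loci were mostly lower in replicate 2. Of the 58 replicate 1 peaks, 48 had a lower signal in replicate 2 and 10 a higher one, and 51.1% of all shared peaks were lower. The median log2 ratio of replicate 2 over replicate 1 was −0.37 for the 58 and −0.01 for all 76733 shared peaks. By locus it was −0.75 at Neb (11 peaks), −0.52 at Ttn (11), −0.41 at Lmod3 (6), −0.38 at Lmod2 (7), −0.21 at Tmod4 (10) and −0.12 at Tmod1 (13). The Tmod4 value includes the 4 peaks at promoters of other genes. Those at Vps72 and Tnfaip8l2 were higher in replicate 2, and all other shared peaks of that locus were lower. Peaks of 1 gene share their locus and the lists may have been scaled separately, so these are descriptions of 2 samples.

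**Figure D4:**
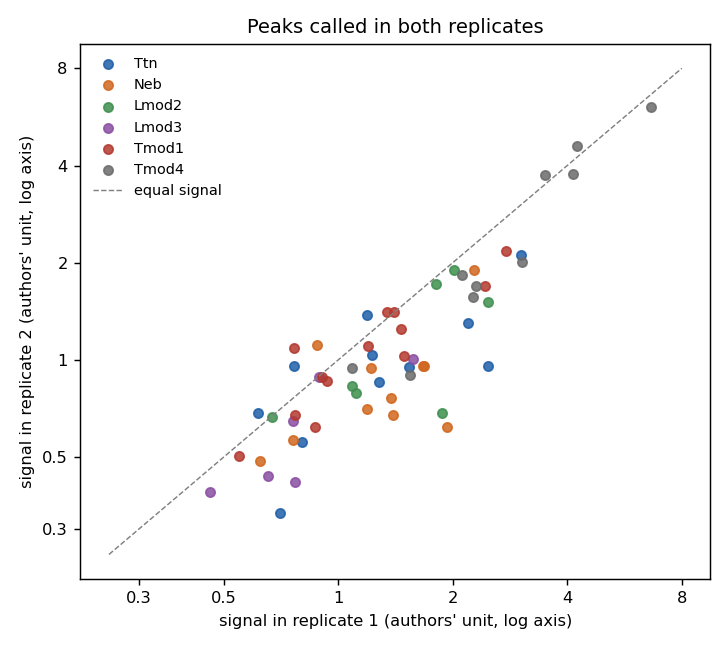
Signal of each peak called in both replicates, replicate 1 on the horizontal and replicate 2 on the vertical axis (authors' unit, log axes), with 1 point per replicate 1 peak coloured by gene and a dashed line of equal signal. Of the 58 points 48 lie below the line, those of nebulin and titin furthest on the median.

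Promoter signal was also compared between the replicates for markers of fibres and of other cells. The fibre markers went the same way as the 6 genes, and the endothelial and macrophage markers went the other way. The ratio of promoter signal, replicate 2 over replicate 1, had a median of 0.752 for the 6 genes (5 lower, 1 higher), of 0.809 for the skeletal muscle fibre markers (7 of 8 lower) and of 1.07 for all genes (31.7% lower, 4313 of 13621). It was 1.50 for the endothelial markers (5 of 5 higher), 1.40 for the macrophage markers with a peak (3 of 3 higher) and 0.970 for the fibroblast markers (3 of 4 lower). The smooth muscle and pericyte markers had 1.03 (2 of 3 higher) and the relatives of the 6 genes 1.04 (4 of 5 higher). The 5 endothelial signals ran from 0.437 to 1.51 in replicate 1 and from 0.755 to 1.84 in replicate 2. Of the macrophage markers, Ptprc and Csf1r had no promoter peak in either replicate, and the 3 other macrophage markers ran from 0.335 to 0.731 in replicate 1 and from 0.470 to 1.12 in replicate 2. The part of cell makeup in the result was not tested.

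**Figure D5:**
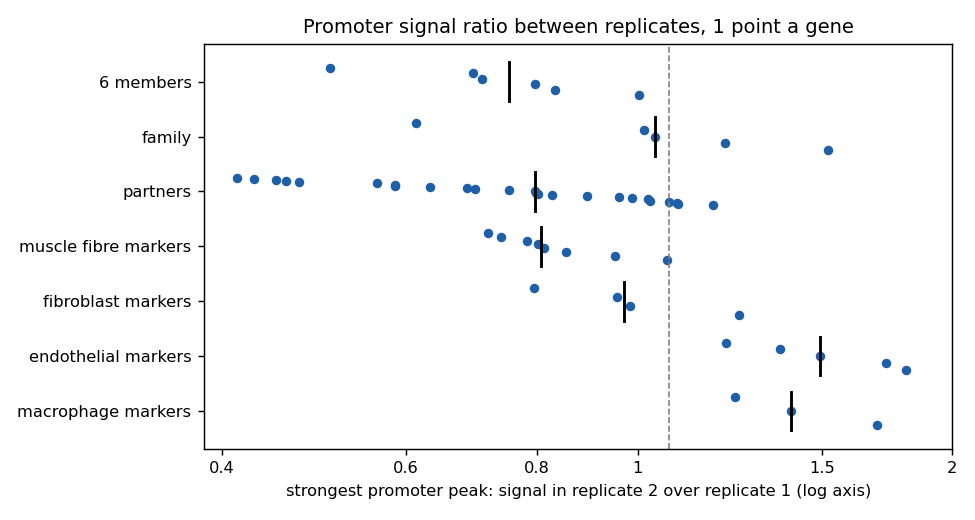
Ratio of the strongest promoter peak signal, replicate 2 over replicate 1 (log axis), with 1 point per gene, a black bar at each list's median and a dashed line at the median of all genes (1.07). The 6 members, their partners and the fibre markers have medians between 0.752 and 0.809, and the endothelial and macrophage markers have medians of 1.50 and 1.40. Acta1 is in both the partner and the fibre marker list.

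The label of the tissue was checked with the same lists. All 8 fibre markers had a promoter peak in both replicates, with medians of 3.41 and 2.60. The medians over all promoters with a peak were 3.16 and 3.41. All 4 fibroblast markers (medians 2.58 and 2.85) and all 5 endothelial markers (0.579 and 1.05) also had a promoter peak in both. So did 3 of 4 smooth muscle and pericyte markers and 3 of 5 macrophage markers. A promoter peak thus did not set the fibre markers apart from the fibroblast or endothelial ones. Of the 5 heart markers only Ryr2 did (0.574 and 0.475), Tnni3 had a peak of 0.695 in replicate 1 alone, and Myh6, Nppa and Nkx2-5 had none in either. Of the liver and erythroid markers 1 of 4 did in each list, and of the neuron markers 1 of 3, the kinase gene Camk2a. The Camk2a peak (2.27 and 1.79) lay at an inner start of its gene record, away from the outermost one. It was above the lowest fibre marker, Cacna1s (2.10 and 1.71).

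Relatives of the 6 genes were open to unlike degrees. Tmod3, the broadly expressed tropomodulin, had the highest promoter signal of the relatives, 4.95 and 6.00, and Tmod2, known from neurons, 0.548 and 0.833. Lmod1, the smooth muscle leiomodin, had 1.07 and 1.11. Of the nebulin relatives, Lasp1 had 3.10 and 3.14, Nrap, found in striated muscle, had 2.41 and 1.48, and Nebl, the nebulin relative of heart, had no promoter peak. Nebl had 3 body peaks in replicate 1 and 0 in replicate 2.

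Another 25 genes encode proteins that bind titin or nebulin or act on thin filament length. One of them, the thin filament actin gene Acta1, is also among the fibre markers. All 25 had a promoter peak in both replicates, against 62.2% of all protein-coding genes. Their median promoter signal was 2.54 and 1.69, and 19 of the 25 were lower in replicate 2, against 31.7% of all genes. The highest were Wdr1, which aids actin turnover (9.08 and 9.30), and Myom1, the M-line protein that binds titin (8.35 and 9.84). The lowest was Csrp3, with 0.340 and 0.335.

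Footprints numbered 263 in replicate 1 and 183 in replicate 2 over the 6 loci. Ttn had 60 and 73, Neb 50 and 20, Tmod4 49 and 34, Tmod1 47 and 33, Lmod2 32 and 17 and Lmod3 25 and 6. A peak held 86.3% of them in replicate 1 (exact 95% interval 81.6 to 90.2) and 90.7% in replicate 2 (85.5 to 94.5), against 86.7% and 86.3% of all footprints. Footprints of the other replicate overlapped 33.5% and 49.7%, against 41.6% and 61.5% of all.

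Motif letters were counted in the 200 bp around the midpoint of 54 shared peaks of the 6 loci that were not at another gene's promoter, some of which overlap each other. The MEF3 letters TCAGGTT, read by homeobox factors in muscle, were in 7 of the 54 (13.0%) and in 2.86% of all 76733 shared peaks. The E-box CAGCTG was in 27.8% and 20.4%, CCAAT in 31.5% and 23.8%, and the MCAT letters GGAATG in 16.7% and 11.6%. The GC box GGGCGG was in 4 of the 54 (7.41%) and in 22.0% of all, TGANTCA in 7.41% and 8.63%, TATAAA in 5.56% and 5.01%, and AAGGTCA in 5.56% and 3.90%. The MEF2 motif and the CArG box were each in 1 of the 54 (1.85%), and in 0.911% and 0.979% of all shared peaks. The windows had a median of 52.2% G and C, and all shared peaks 54.0%.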

How the data were processed

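DNase-seq was measured in 2 biological replicates of 1 group. The authors deposited, per sample and on mm10 per the labels, 2 peak lists, footprints and cut rates; caller, aligner and versions are not given in the sources used here. Column 7 of the deposited peak lists is the signal, which moves in steps of 0.00508 (replicate 1) and 0.00559 (replicate 2), so scaling may differ between lists and depth is unknown. The deposited cut rate files give a p-value type column, a false discovery rate, listed under 0.05. In the deposited footprint files that p-value column is a constant 0.01, a threshold. Both columns were used as thresholds only.

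The larger peak list of each sample was used, with GENCODE mouse release 21 genes. Overlap meant at least 1 bp. Percentiles rank signals within 1 replicate. Intervals on shares are 95% binomial ones by the exact Clopper-Pearson method, for counting error only. They take peaks as independent, which neighbouring or nested peaks of a locus may not be, so they can be too narrow. With 1 group and no contrast no test was run, and 15 alternatives were tried, 13 planned and 2 added after seeing the data. All members and family genes and the 2 highest partner genes were named, as was the lowest partner gene, after its value was seen. So were the 5 genes with the highest share of body peaks called in each replicate alone. The strongest promoter, exon and body peaks and runs called in 1 replicate were also named, as was the top Lmod2 flank peak by mean rank. Other peaks of Neb, Lmod2, Lmod3, Tmod1, Tmod4 and Ttn were picked after their values were seen. The members and lists were chosen with earlier results of these data known. Overlap, class and motif code was tested on simulated data. RefSeq promoter records matched 4 of 6 members and were not used. Python 3.11.15, numpy 2.4.6, pandas 2.3.3, scipy 1.17.1 and matplotlib 3.10.9 were used.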

Additional observations from a re-analysis of the deposited data

How the results depend on the processing

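No paired analysis was possible because there is only 1 group. Means over both replicates were 113 peaks, 223 footprints, 51.4% of peaks shared and 88.5% of footprints inside a peak for the 6 loci. With the stricter list these were 73.5 peaks, 49.4% shared and 65.1% of footprints inside a peak. The better 50% of peaks gave 57.5, 77.7% and 65.0%. The same number of top peaks in both replicates gave 54.6% shared, and an overlap of 50% of both intervals 44.3%. No flank gave 73 peaks, 44.8% shared and 120.5 footprints, and a flank of 10 kb 48.1% shared. Without the runs, added after seeing the data, 72.9% were shared. Footprints inside peaks only gave 100% by construction. Leaving out either replicate kept the other's value, from 110 to 116 peaks and from 11.3% to 60.0% for the exon share, of which the SD (34.4) is so wide that no alternative moved it beyond, although 6.80% with the better 50% of peaks and 50.3% by 1 bp of overlap are far apart. The cause of these shifts was not tested. Precision is limited by 2 samples and unknown depth.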
